A study of Mus musculus with 12 samples.

Results

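Glycolysis and hypoxia-response genes were followed through bulk RNAseq of fibroblasts reprogrammed with *Sox17*-*Erg*. The 39 genes encode the enzymes of glycolysis with their isozymes, the regulators of phosphofructokinase, glucose and lactate transporters, pyruvate dehydrogenase kinases, HIF subunits with their prolyl hydroxylases, and a few well known hypoxia-induced genes. They were found in the count table by the mouse symbol of each Ensembl ID, as 39 of 35727 deposited genes, and all 39 were among the 15506 genes with enough counts to be tested. A second row that carries the symbol *Aldoa* held only 2 to 9 counts per library and was not used. Cells were neonatal mouse cardiac fibroblasts, pooled from several hearts, enriched for THY1 and depleted of PECAM1-positive cells, and grown in EGM2, a medium made for endothelial cells. The animals were C57BL/6J, or *Tcf21*-CreERT2 mice with a *Rosa26* tdTomato reporter driven in fibroblasts, and the sources used here do not give which were used for these libraries. Cells either received *Sox17* and *Erg* by retrovirus or were controls, whose columns carry the name of the pMX retroviral backbone, and RNA was taken at Day 3, Day 7 and 4 weeks. Each of the 6 groups had 2 libraries. Cultures were sequenced without sorting, so a library holds converted and unconverted cells together. In such bulk samples, fewer cells of a type and less RNA per cell cannot be told apart.

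Glycolysis splits glucose into pyruvate in the cytosol, with phosphofructokinase as its main point of control. Pyruvate then enters the mitochondrion through the pyruvate dehydrogenase complex, which pyruvate dehydrogenase kinases switch off, or is reduced to lactate by lactate dehydrogenase. Hypoxia-inducible factors are pairs of an oxygen-regulated alpha subunit and a stable partner. In the presence of oxygen, prolyl hydroxylases mark the alpha subunit for breakdown, and at low oxygen it accumulates and switches on many genes of glucose uptake and glycolysis. Endothelial cells are known for making most of their ATP by glycolysis, and for the regulator PFKFB3 in sprouting vessels.

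The HIF dimer binds a short DNA core, ACGTG or GCGTG, and the 250 bases before the transcription start were searched for it on both strands, where it reads CACGT or CACGC. Both cores share letters with the E-box CACGTG, and overlapping matches were counted once. Of the 39 genes, 36 had at least 1 RefSeq promoter window in GRCm38.p6, and no window was held for *Slc2a3*, *Epas1* and *Ndrg1*. A core was present in 32 of these 36 genes (88.9%), in at least 1 window, and in 6581 of 11213 tested genes with a window (58.7%). By window the share was 75% of 56 member windows, 53.1% of the windows of tested genes and 38.6% of all 32851 windows. Matches are letters in a window and say nothing of binding. The 39 genes were chosen as glycolysis and hypoxia-response genes, and the difference in share was not tested. Of those called against control at Day 7, 3 of 4 higher and 4 of 5 lower genes held a core, beside 25 of 27 not called. At 4 weeks it was 4 of 5 and 5 of 6, beside 23 of 25, and at Day 3 1 of 2 and 1 of 1, beside 30 of 33. The windows of 5 genes are printed because these genes were called against control at both Day 7 and 4 weeks and each has a window wholly outside the annotated gene, which is the one shown. Each line gives 250 bases 5′ to 3′ on the gene's strand, and capitals mark the cores.
Vldlr, chr19:27216234-27216483, plus strand: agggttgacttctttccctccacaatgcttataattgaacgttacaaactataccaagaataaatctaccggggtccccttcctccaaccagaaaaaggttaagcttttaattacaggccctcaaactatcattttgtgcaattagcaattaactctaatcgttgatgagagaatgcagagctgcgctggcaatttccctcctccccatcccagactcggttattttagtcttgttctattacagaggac
Gpi1, chr7:34230337-34230586, minus strand: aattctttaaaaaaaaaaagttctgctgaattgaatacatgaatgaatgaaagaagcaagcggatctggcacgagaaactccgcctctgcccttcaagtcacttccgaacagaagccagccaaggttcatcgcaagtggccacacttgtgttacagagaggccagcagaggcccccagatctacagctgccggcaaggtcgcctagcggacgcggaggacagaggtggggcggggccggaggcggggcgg
Ldhb, chr6:142507958-142508207, minus strand: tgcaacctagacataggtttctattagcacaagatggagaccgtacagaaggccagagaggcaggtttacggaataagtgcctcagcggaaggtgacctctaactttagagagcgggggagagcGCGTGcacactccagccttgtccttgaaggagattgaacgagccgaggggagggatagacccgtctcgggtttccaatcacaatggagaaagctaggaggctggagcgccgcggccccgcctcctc
Slc16a1, chr3:104638414-104638663, plus strand: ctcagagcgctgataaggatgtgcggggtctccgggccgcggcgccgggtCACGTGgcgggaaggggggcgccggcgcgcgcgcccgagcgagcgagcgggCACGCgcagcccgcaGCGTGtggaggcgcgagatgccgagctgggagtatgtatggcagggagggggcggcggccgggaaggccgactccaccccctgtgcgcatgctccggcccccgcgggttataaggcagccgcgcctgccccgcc
Egln3, chr12:54203875-54204124, minus strand: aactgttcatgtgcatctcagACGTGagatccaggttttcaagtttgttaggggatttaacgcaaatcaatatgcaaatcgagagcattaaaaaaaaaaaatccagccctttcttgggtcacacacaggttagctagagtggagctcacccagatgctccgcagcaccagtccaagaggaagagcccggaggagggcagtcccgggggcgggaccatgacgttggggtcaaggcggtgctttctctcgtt
*Vldlr*, which also has a second window that lies inside the annotated gene, and *Gpi1* held no core in any window searched. *Ldhb* and *Egln3* held 1 core each, and *Slc16a1* held 3, of which the first is an E-box.

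Total counts on genes ran from 19011635 to 41240449 per library. *Sox17* stood between 0 and 0.416 CPM (counts normalized to library size by TMM) in the control libraries and between 432 and 1036 in the *Sox17*-*Erg* libraries, and *Erg* between 0.0728 and 2.27 against 17.1 and 65.2. The summed level of 9 endothelial markers ran from 18.4 to 59.0 CPM in control and from 311 to 772 CPM in *Sox17*-*Erg*, where 7 of the 8 tested were higher at 4 weeks. Fibroblast markers stayed the largest of the marker sums in both arms, at 15620 to 39810 CPM in control and 12360 to 41660 CPM with *Sox17*-*Erg*. They too moved with the groups, with 1 of 8 lower at Day 3, 1 higher and 2 lower at Day 7, and 1 higher and 3 lower by 4 weeks, when their sum was 12360 to 13010 CPM against 15620 to 19060 CPM. At 4 weeks, 6 of 7 markers of cycling cells were higher with *Sox17*-*Erg* (sum 88.4 to 239 against 33.0 to 38.0 CPM), 5 of 8 cardiomyocyte markers were lower (685 to 687 against 1075 to 1351 CPM) and 3 of 4 tested adipocyte markers were lower (157 to 178 against 299 to 395 CPM). Mural and smooth muscle markers were higher for 4 of 7 (4628 to 4790 against 1579 to 3151 CPM). On Day 7, 5 of these 7 were higher (2490 to 4904 against 1176 to 1802 CPM), 3 of 8 cardiomyocyte markers were lower (369 to 469.7 against 644 to 889.5 CPM), and 3 of 4 adipocyte markers were lower, with sums that overlapped (107 to 159 against 113 to 351 CPM). On Day 3, 1 mural marker was higher (5004 to 5018 against 3769 to 4059 CPM) and 1 cardiomyocyte marker lower (334 to 413 against 893 to 1526 CPM). The cycling sum was then 1040 to 1266 CPM against 372 to 469 CPM, with 0 of 7 called by edgeR, 4 at an unadjusted p under 0.05 and 2 called by DESeq2. Macrophage markers, at 8.19 to 177 CPM over all libraries, and striated muscle markers, at 0.0708 to 1.13 CPM, gave no call against control by edgeR or DESeq2, and 0 of both lists had an unadjusted p under 0.05. No marker was at 0 in every library. These lists moved with the groups compared here, and their part in the results was not tested. Nothing in the labels says that the 2 libraries of a group came from separate isolations, so p-values measure the spread between these libraries, which may be technical.

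The 39 genes moved in both directions. *Sox17*-*Erg* libraries held more mRNA of the glucose transporter *Slc2a3*, of the phosphofructokinase activator *Pfkfb3* and of the lipoprotein receptor *Vldlr* at all 3 time points, and less of *Ndrg1*, a hypoxia-induced stress gene. Lactate dehydrogenase B, the lactate transporter *Slc16a1* and the isomerase *Gpi1* were lower from Day 7, and *Epas1* and *Hif1a*, which encode HIF alpha subunits, were higher at 4 weeks. None of the 7 enzymes of lower glycolysis was called at any time point in the edgeR fit of all 12 libraries without a block, though *Pgk1*, *Eno2* and *Eno3* were called in other fits. Genes were called by the quasi-likelihood test of edgeR at an adjusted p under 0.05 over all tested genes, in that fit unless another is named, and errors are standard errors of the log2 fold change. At Day 3, 3 of 39 genes were higher (7.69%) and 2 were lower (5.13%), beside 7.19% and 5.13% of all tested genes. At Day 7, 5 were higher (12.8%) and 6 lower (15.4%), beside 9.48% and 7.93%. At 4 weeks, 7 were higher (17.9%) and 7 lower (17.9%), beside 11.9% and 11%. In this fit the shares were near the background at Day 3 and above it at both later times, and that difference was not tested. Both directions together, 12.8%, 28.2% and 35.9% of the 39 genes were called, beside 12.3%, 17.4% and 22.9% of all tested genes. With a filter of 50 counts in 2 libraries, the gap at the later times was smaller. It was then 15.4%, 28.2% and 33.3% of the 39 genes, beside 15.1%, 21% and 26.6%. The median log2 fold change of the 39 genes was -0.07, -0.09 and -0.11 in order of time, against medians of 0.01, 0.01 and -0.01 for all tested genes. Libraries of the 2 arms did not overlap for 23, 29 and 30 of the 39 genes in order of time. This was so for 64%, 57.9% and 62.7% of all tested genes, so arms that stand apart are the usual outcome here.

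**Figure D1:**
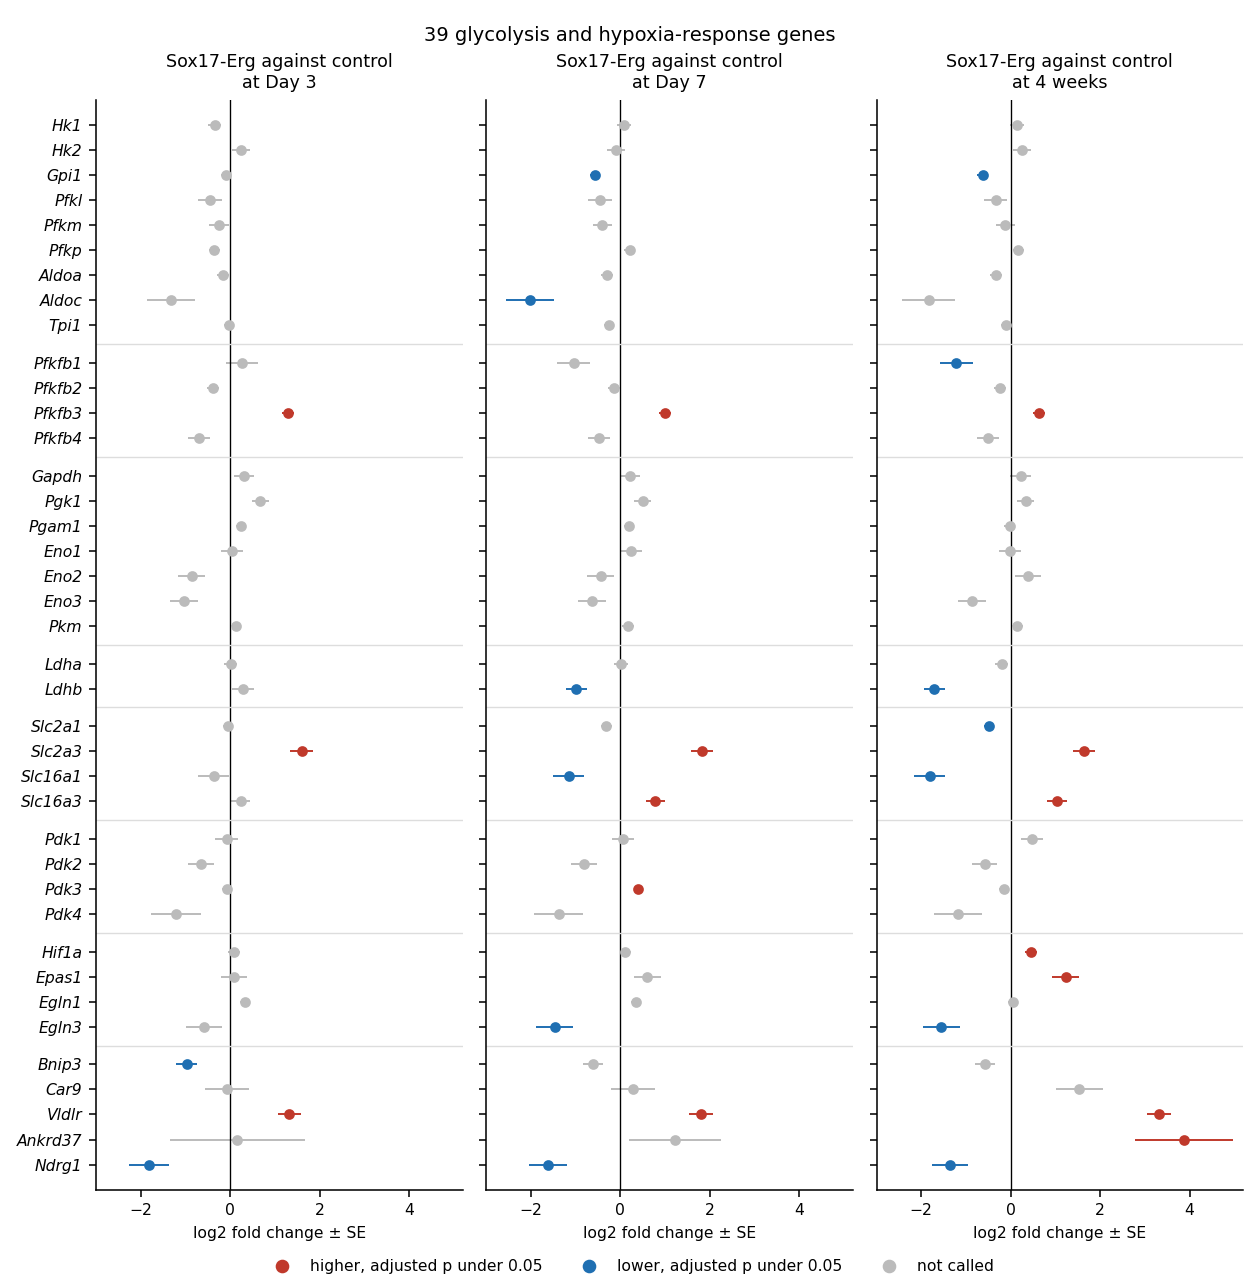
Log2 fold change with its standard error for each of the 39 genes, *Sox17*-*Erg* against control, at Day 3, Day 7 and 4 weeks (2 libraries per group). Genes are ordered by role, red marks genes called higher and blue genes called lower, and the 3 panels hold 5, 11 and 14 called genes.

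Same-numbered control and *Sox17*-*Erg* libraries deviated together within each time point, so the comparison was also fitted with the replicate number as a block within time point. Same-numbered libraries of Day 3 and Day 7 deviated together too, and the labels do not say that equal numbers are pairs. The block moved the counts by over 1.5 times at Day 3 and Day 7. With it, 5 genes were higher and 8 lower at Day 3 (background 12.7% and 10.4% of tested genes), 7 higher and 10 lower at Day 7 (13.8% and 13.3%), and 7 higher and 12 lower at 4 weeks (15.5% and 15.5%). Both directions together, this was 33.3%, 43.6% and 48.7% of the 39 genes, beside 23.2%, 27.1% and 31% of tested genes. With the block the share was thus above the background at Day 3 too, which was not tested. Each gene called without the block was called with it, and 8, 6 and 5 genes were added at the 3 time points. These added calls are given with their genes. Leaving out each of the 12 libraries in turn gave 1 to 6, 3 to 12 and 6 to 13 calls in order of time, beside 1.69 to 12.3%, 5.69 to 15.5% and 10.5 to 22.2% of all tested genes. The lowest counts came without a library of the time point itself, where the share of all tested genes called was also at its lowest. For Day 3 the count was 1 without control replicate 2 (2.56% of the 39 genes, beside 2.28% of all tested) or *Sox17*-*Erg* replicate 1 (beside 1.69%), 2 without control replicate 1 (5.13% beside 2.34%) and 3 without *Sox17*-*Erg* replicate 2 (7.69% beside 8.65%). For Day 7 it was 3 without control replicate 2 (7.69% beside 8.54%) or *Sox17*-*Erg* replicate 1 (beside 5.69%) and 5 without control replicate 1 (12.8% beside 12.3%). For 4 weeks it was 6 without control replicate 1 (15.4% beside 12.5%), 7 without *Sox17*-*Erg* replicate 1 (17.9% beside 10.5%) and 8 without *Sox17*-*Erg* replicate 2 (20.5% beside 15.9%). The calls that held in all 12 of these fits were *Pfkfb3* at Day 3, *Slc2a3*, *Vldlr* and *Pfkfb3* at Day 7, and *Slc2a3*, *Vldlr*, *Ldhb*, *Slc16a1* and *Gpi1* at 4 weeks.

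Among the glucose transporters, *Slc2a3* and *Slc2a1* went different ways. *Slc2a3* (chr6:122727809-122801640 in GRCm38, minus strand) encodes GLUT3, a carrier with high affinity for glucose. It measured 18.1 and 11.4 CPM (Day 3), 13.6 and 14.6 (Day 7), and 16.8 and 12.1 (4 weeks) in control. *Slc2a3* in *Sox17*-*Erg* libraries measured 51.1 and 38.5 CPM (Day 3), 54.8 and 45.04 (Day 7), and 49.9 and 40.9 (4 weeks). All 6 *Sox17*-*Erg* libraries lay above all 6 control libraries, and neither arm was called over time. The log2 fold change was 1.60 ± 0.25 (adjusted p = 0.0066) on Day 3, 1.82 ± 0.25 (adjusted p = 0.0018) on Day 7 and 1.64 ± 0.25 (adjusted p = 0.0019) by 4 weeks, which is a 3.03-fold, 3.54-fold and 3.12-fold higher level. The Day 3 call was lost without control replicate 2 of Day 3 or *Sox17*-*Erg* replicate 1 of Day 3 (adjusted p = 0.052 to 0.067). *Slc2a1* encodes GLUT1, the carrier of basal uptake in most cells. Its control libraries held 38.4 and 40.9 CPM (Day 3), 37.8 and 40.6 (Day 7), and 47.1 and 38.5 (4 weeks), and its *Sox17*-*Erg* libraries 36.99 and 39.9 CPM (Day 3), 30.6 and 32.6 (Day 7), and 30.5 and 30.7 (4 weeks). The groups overlapped at Day 3 and stood apart afterwards. *Slc2a1* was not called at Day 3 (-0.04 ± 0.12, adjusted p = 0.84) or Day 7 (-0.31 ± 0.12, adjusted p = 0.1) and was lower at 4 weeks, at -0.49 ± 0.12 (adjusted p = 0.017). This call was lost without control replicate 1 of 4 weeks or either *Sox17*-*Erg* library of 4 weeks (adjusted p = 0.057 to 0.13), and in a fit of the 4-week libraries alone. Per kilobase of transcript, *Slc2a3* made up 27.9 and 18.6% (Day 3), 22.9 and 22.8 (Day 7), and 22.7 and 20.6 (4 weeks) of the 2 transporters in control. Its share was 53.2 and 44.3% (Day 3), 59.6 and 53.2 (Day 7), and 57.4 and 52.2 (4 weeks) with *Sox17*-*Erg*. It was the minor form in every control library and held the larger share in 5 of 6 *Sox17*-*Erg* libraries.

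*Pfkfb3* was the regulator that rose. The 4 PFKFB enzymes make and break fructose 2,6-bisphosphate, the strongest activator of phosphofructokinase, and PFKFB3 is the form most biased towards making it. *Pfkfb3* (chr2:11471433-11554077, minus strand) measured 22.4 and 24.3 CPM (Day 3), 27.04 and 22.4 (Day 7), and 25.1 and 25.01 (4 weeks) in control. *Pfkfb3* in *Sox17*-*Erg* libraries measured 60.8 and 53.3 CPM (Day 3), 46.3 and 52.8 (Day 7), and 36.8 and 41.3 (4 weeks). The *Sox17*-*Erg* libraries lay above all control libraries at each time, and furthest above them at Day 3. Its log2 fold change was 1.29 ± 0.13 (adjusted p = 0.00094) on Day 3, 1.004 ± 0.13 (adjusted p = 0.0014) on Day 7 and 0.64 ± 0.13 (adjusted p = 0.0081) by 4 weeks. The difference in effect between 4 weeks and Day 3, -0.65 ± 0.19 (adjusted p = 0.11), did not pass the test. Only the 4-week call was lost on leaving out a library, without *Sox17*-*Erg* replicate 2 of 4 weeks (adjusted p = 0.065). *Pfkfb1*, the liver and muscle form, measured 2.15 and 2.13 CPM (Day 3), 3.30 and 1.81 (Day 7), and 2.10 and 2.64 (4 weeks) in control. In the *Sox17*-*Erg* libraries *Pfkfb1* held 2.48 and 2.67 CPM (Day 3), 1.41 and 1.05 (Day 7), and 0.779 and 1.26 (4 weeks). It was lower at 4 weeks (-1.21 ± 0.37, adjusted p = 0.044). That call was lost without either control library of Day 3, either control library of 4 weeks, either *Sox17*-*Erg* library of Day 3, either *Sox17*-*Erg* library of Day 7 or either *Sox17*-*Erg* library of 4 weeks (adjusted p = 0.051 to 0.24). It was also lost with library totals, with the replicate number as 1 block over all times (adjusted p = 0.054), and in a fit of the 4-week libraries alone. With the block within time point, *Pfkfb1* was also lower at Day 7 (-1.02 ± 0.29, adjusted p = 0.041), and *Pfkfb4* lower at Day 3 (-0.71 ± 0.20, adjusted p = 0.04). *Pfkfb2*, between 11.5 and 16.1 CPM, and *Pfkfb4*, between 3.08 and 6.59 CPM, were not called in the fit without it. *Pfkfb3* made up 41.5 and 43.97% (Day 3), 45.7 and 42.6 (Day 7), and 46.9 and 44.5 (4 weeks) of the 4 regulators per kilobase in control. That share was 71.96 and 67.1% (Day 3), 67.3 and 67.4 (Day 7), and 64.9 and 63.8 (4 weeks) with *Sox17*-*Erg*, with no overlap between the arms.

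**Figure D2:**
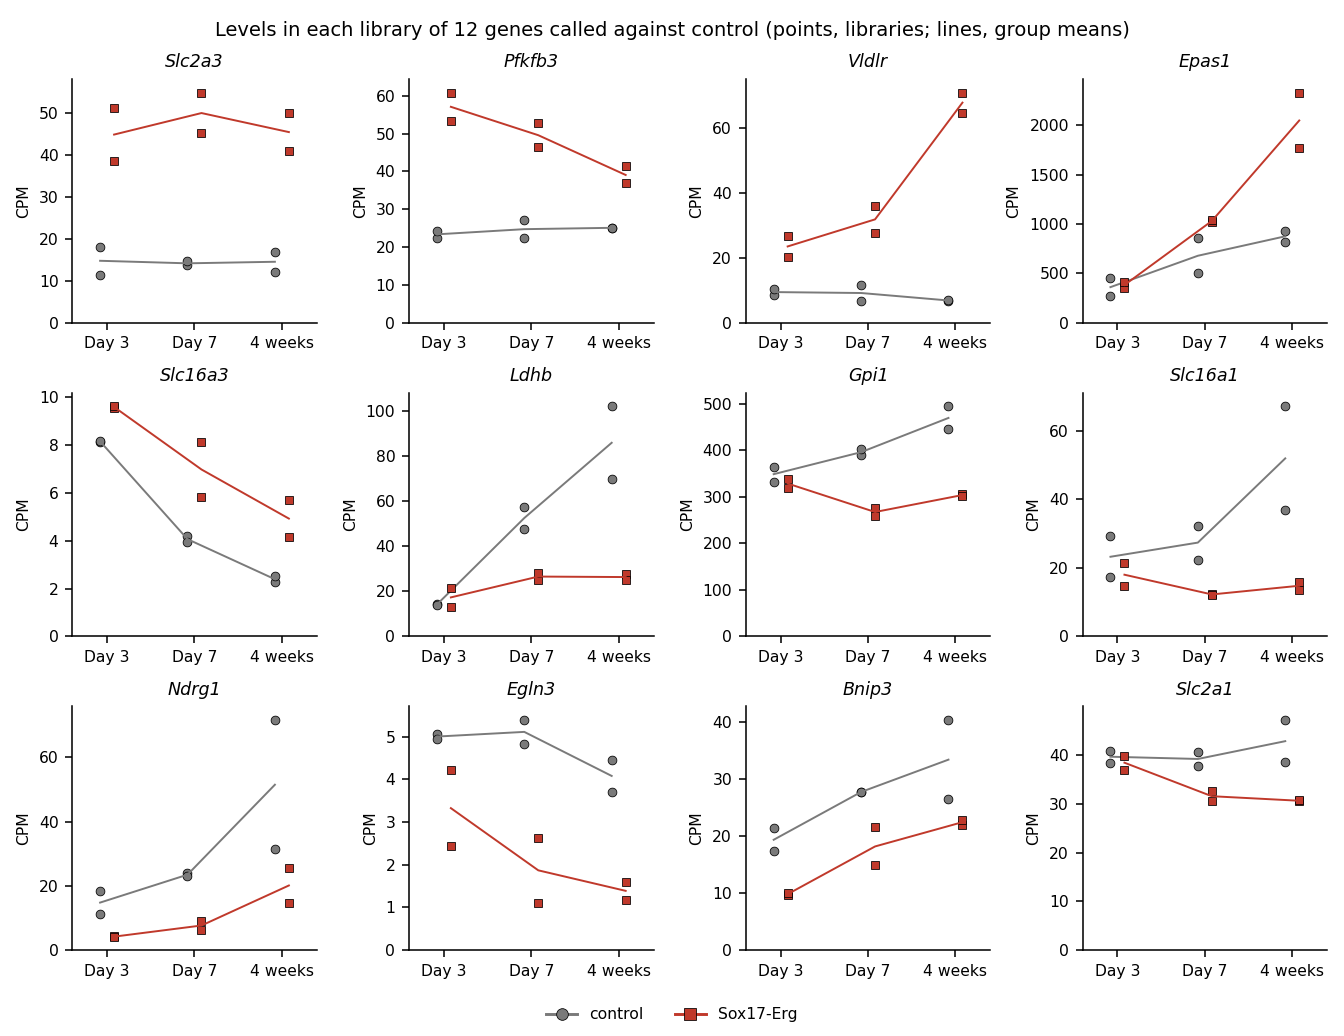
CPM in each library (points) and group means (lines) of 12 genes called against control at 1 time point or more, at Day 3, Day 7 and 4 weeks, with a separate linear axis from 0 for each gene. The *Sox17*-*Erg* libraries of *Slc2a3*, *Pfkfb3* and *Vldlr* lay above the control libraries at each time, and those of *Ndrg1*, *Egln3* and *Bnip3* below.

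Upper glycolysis held 2 genes that were lower. *Gpi1*, glucose-6-phosphate isomerase, measured 333 and 365 CPM (Day 3), 389.9 and 402 (Day 7), and 445 and 494 (4 weeks) in control. *Gpi1* in *Sox17*-*Erg* libraries measured 318 and 339 CPM (Day 3), 258 and 277 (Day 7), and 306 and 302 (4 weeks). The arms overlapped at Day 3 and were apart at both later times. It was lower, at -0.57 ± 0.11 (adjusted p = 0.01) at Day 7 and -0.63 ± 0.11 (adjusted p = 0.0045) at 4 weeks, beside -0.09 ± 0.11 (adjusted p = 0.66) at Day 3. The Day 7 call was lost without control replicate 2 of Day 7 or *Sox17*-*Erg* replicate 1 of Day 7 (adjusted p = 0.053 to 0.092), and in a fit of the Day 7 libraries alone. The log2 fold change of *Gpi1* at 4 weeks differed from that at Day 3 by -0.54 ± 0.16 (adjusted p = 0.12), and DESeq2 called this difference (-0.51, adjusted p = 0.012). *Gpi1* shared 13.9% of its 31-base words with other annotated genes, so a small part of its reads could have been divided with them. The gene that shared most of these words, Gm1840, held at most 13 counts where *Gpi1* held at least 6281. *Aldoc*, the aldolase of brain, was scarce, at 2.33 and 0.879 CPM (Day 3), 2.92 and 2.29 (Day 7), and 0.977 and 0.854 (4 weeks) in control and 0.911 and 0.388 CPM (Day 3), 0.579 and 0.703 (Day 7), and 0.212 and 0.296 (4 weeks) with *Sox17*-*Erg*. It was lower at Day 7 (-2.02 ± 0.54, adjusted p = 0.032), a call lost without either control library of Day 7 or either *Sox17*-*Erg* library of Day 7 (adjusted p = 0.076 to 0.2). At 4 weeks it was -1.84 ± 0.59 (adjusted p = 0.052), and lower with the block within time point (-1.84 ± 0.44, adjusted p = 0.019), by DESeq2 (adjusted p = 0.046) and without the low-count filter (0.022). *Aldoa*, the aldolase of most tissues, made up 99.7% or more of both aldolases per kilobase in each library, and ran from 429 to 687 CPM. None of *Hk1* (114 and 179 CPM at the extremes), *Hk2* (21.8 and 46.7), *Pfkl* (31.2 and 80.5), *Pfkm* (27.6 and 57.1), *Pfkp* (43.3 and 84.3), *Aldoa* and *Tpi1* (138 and 198) was called against control in the fit of all 12 libraries without a block. *Pfkl*, the liver form of phosphofructokinase, was lower at each time point once the replicate block was in the fit, at -0.46 ± 0.10 (adjusted p = 0.018), -0.47 ± 0.10 (adjusted p = 0.013) and -0.33 ± 0.10 (adjusted p = 0.038). It was also called lower in the fit of the Day 3 libraries alone (-0.48, adjusted p = 0.035).

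No enzyme of lower glycolysis was called against control in the edgeR fit of all 12 libraries without a block, and 4 of 7 fell with time in both arms. At an unadjusted p under 0.05, 1 was higher and 2 were lower at Day 3, 1 was higher at Day 7 and 1 was lower at 4 weeks. DESeq2 called *Pgk1* higher (0.65, adjusted p = 0.013) and *Eno3* lower (-1.05, adjusted p = 0.021) at Day 3 and 0 of the 7 at both later times. Without the low-count filter edgeR called *Pgk1* (adjusted p = 0.009), *Eno2* (0.023) and *Eno3* (0.012) at Day 3 and *Eno3* (0.03) at 4 weeks. In the fit of the Day 3 libraries alone it called *Pgk1* (0.033) and *Eno3* (0.036), and with a filter of 50 counts *Eno3* (0.049). *Gapdh* measured 1071 and 1024 CPM (Day 3), 806 and 598 (Day 7), and 539 and 639.8 (4 weeks) in control. In the *Sox17*-*Erg* libraries *Gapdh* held 1386 and 1209 CPM (Day 3), 979.8 and 644 (Day 7), and 749 and 627 (4 weeks). *Pkm*, pyruvate kinase, measured 762 and 846 CPM (Day 3), 505 and 478 (Day 7), and 514 and 464 (4 weeks) in control. *Pkm* with *Sox17*-*Erg* held 862 and 888 CPM (Day 3), 578 and 522 (Day 7), and 561 and 521 (4 weeks). Their log2 fold changes against control were between 0.12 and 0.31, with standard errors of 0.13 for *Pkm* and 0.23 for *Gapdh*. *Pgk1*, phosphoglycerate kinase, held 248 and 288 CPM (Day 3), 196 and 158 (Day 7), and 153 and 169 (4 weeks) in control. In the *Sox17*-*Erg* libraries *Pgk1* held 448 and 409 CPM (Day 3), 295 and 203 (Day 7), and 186 and 221 (4 weeks). The *Sox17*-*Erg* libraries of *Pgk1* lay above the control libraries at each time, with 0.67 ± 0.20 (adjusted p = 0.054) at Day 3. With the replicate block within time point *Pgk1* was higher at Day 3 (0.68 ± 0.12, adjusted p = 0.011) and Day 7 (0.48 ± 0.12, adjusted p = 0.029). *Pgam1* stood from 126 to 214 CPM and *Eno1* from 176 to 514 CPM over all libraries. The arms of *Eno1* overlapped at each time. Those of *Pgam1* overlapped at 4 weeks only. With *Sox17*-*Erg*, *Pgam1* lay above control at Day 3 (202 and 214 against 169.7 and 182.5 CPM) and Day 7 (171.6 and 156.9 against 144.1 and 144.6 CPM). The minor enolases were *Eno2*, the neuronal form, between 4.30 and 13.9 CPM, and *Eno3*, the muscle form, between 2.37 and 13.2 CPM. *Eno3* libraries were lower with *Sox17*-*Erg* at each time, and at any of these times most tested genes had arms that stood apart. Under the block within time point *Eno2* was lower at Day 3 (-0.90 ± 0.23, adjusted p = 0.033) and *Eno3* at Day 3 (-1.01 ± 0.27, adjusted p = 0.036) and 4 weeks (-0.94 ± 0.27, adjusted p = 0.04). For *Eno2* the difference in effect between 4 weeks and Day 3 was 1.25 ± 0.43 (adjusted p = 0.17), called without the low-count filter (1.24, adjusted p = 0.034).

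From Day 3 to 4 weeks, *Gapdh*, *Pgk1*, *Eno1* and *Pkm* were lower in both arms, and *Pgam1* and *Ldha* were called lower in the *Sox17*-*Erg* arm. In control the log2 fold change over time was -0.83 ± 0.23 (adjusted p = 0.028) for *Gapdh*, -0.74 ± 0.20 (adjusted p = 0.023) for *Pgk1*, -1.09 ± 0.25 (adjusted p = 0.013) for *Eno1* and -0.72 ± 0.13 (adjusted p = 0.0048) for *Pkm*. With *Sox17*-*Erg* it was -0.91 ± 0.23 (adjusted p = 0.017), -1.07 ± 0.20 (adjusted p = 0.0047), -1.14 ± 0.25 (adjusted p = 0.0093) and -0.69 ± 0.13 (adjusted p = 0.0051). *Pkm* kept both calls whichever library was left out. The control call was lost for *Gapdh* without either control library of Day 3 or either control library of 4 weeks (adjusted p = 0.061 to 0.16), for *Pgk1* without either control library of Day 3 or either control library of 4 weeks (adjusted p = 0.061 to 0.14), and for *Eno1* without either control library of Day 3 or control replicate 1 of 4 weeks (adjusted p = 0.057 to 0.085). The *Sox17*-*Erg* call was lost for *Gapdh* without *Sox17*-*Erg* replicate 1 of Day 3 or either *Sox17*-*Erg* library of 4 weeks (adjusted p = 0.063 to 0.11), for *Pgk1* without *Sox17*-*Erg* replicate 1 of 4 weeks (adjusted p = 0.051), and for *Eno1* without *Sox17*-*Erg* replicate 1 of Day 3 or *Sox17*-*Erg* replicate 1 of 4 weeks (adjusted p = 0.061 to 0.083). *Pgam1*, phosphoglycerate mutase, was lower over time with *Sox17*-*Erg* (-0.59 ± 0.12, adjusted p = 0.0067) and was -0.33 ± 0.12 (adjusted p = 0.067) in control, where DESeq2 (adjusted p = 0.043) and library totals (0.039) called it lower. The difference in effect between the times, -0.26 ± 0.17 (adjusted p = 0.49), did not pass. Markers of cycling cells also fell over this time in both arms, 7 of 7 in each. Their sum went from 469 and 372 CPM to 38.0 and 33.0 CPM in control and from 1266 and 1040 CPM to 88.4 and 239 CPM with *Sox17*-*Erg*. Of 8 fibroblast markers, 4 were lower over this time in each arm and 1 was higher in control. The fibroblast sum went from 32670 and 39810 CPM to 19060 and 15620 CPM in control, and from 26190 and 41660 CPM to 12360 and 13010 CPM with *Sox17*-*Erg*. The part of either list was not tested. Reads of these enzymes can be divided with near-identical copies. *Pgk1* shared 54.7% of its 31-base words with other genes, *Pgam1* 37.1%, *Pkm* 34.7%, *Eno1* 28.5% and *Gapdh* 27.2%. The copy that shared most words with *Pgk1*, Pgk1-rs7, held 0 counts. That of *Pkm*, Gm6560, held at most 8 counts where *Pkm* held at least 11414. Summed with the row of its copy Gm7336, *Gapdh* changed over time by a log2 ratio of group means of -0.62 in control and -0.79 with *Sox17*-*Erg*, and *Eno1* with Eno1b by -1.19 and -1.24. *Pgam1* with Pgam1-ps2 changed by -0.42 and -0.63. Against control at Day 3 that copy stood at -0.15, beside 0.24 for *Pgam1* alone and 0.17 for their sum.

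**Figure D3:**
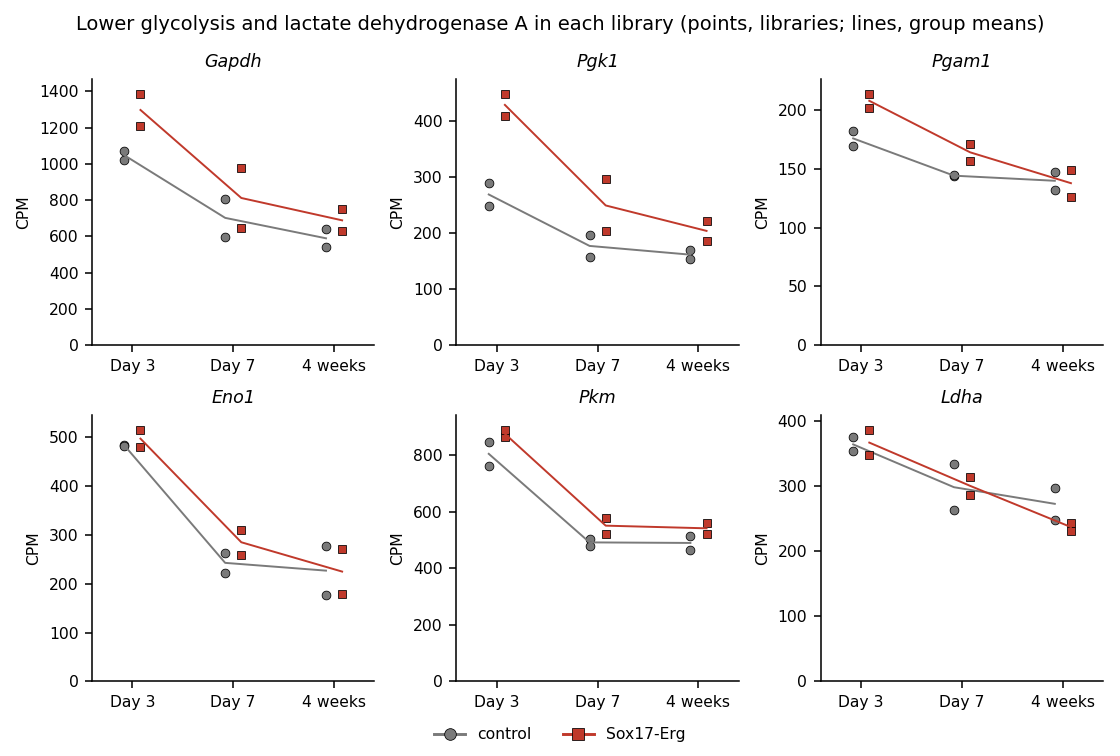
CPM in each library (points) and group means (lines) of 5 lower glycolysis enzymes and *Ldha*, at Day 3, Day 7 and 4 weeks, on linear axes from 0. *Gapdh* group means went from 1048 to 589 CPM in control and from 1298 to 688 CPM with *Sox17*-*Erg* between Day 3 and 4 weeks.

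Lactate dehydrogenase B separated the arms late. Lactate dehydrogenase is a tetramer of A and B subunits, with B typical of heart and other oxidative tissue. *Ldhb* (chr6:142490249-142507957, minus strand), whose promoter window held 1 core, measured 14.2 and 14.1 CPM (Day 3), 47.4 and 57.5 (Day 7), and 102 and 69.7 (4 weeks) in control. *Ldhb* in *Sox17*-*Erg* libraries measured 21.3 and 13.2 CPM (Day 3), 24.9 and 28.1 (Day 7), and 27.6 and 24.9 (4 weeks). The arms overlapped at Day 3, and afterwards each control library lay above each *Sox17*-*Erg* library. The log2 fold change was 0.29 ± 0.24 (adjusted p = 0.46) on Day 3, -0.99 ± 0.24 (adjusted p = 0.021) on Day 7 and -1.71 ± 0.24 (adjusted p = 0.0012) by 4 weeks, when *Ldhb* was 3.27-fold lower. The Day 7 call was lost without control replicate 2 of Day 7 or *Sox17*-*Erg* replicate 1 of Day 7 (adjusted p = 0.11 to 0.15). In control *Ldhb* was higher at 4 weeks than at Day 3 by 2.60 ± 0.25 (adjusted p = 0.00042), and with *Sox17*-*Erg* the change was 0.61 ± 0.24 (adjusted p = 0.084), called higher by DESeq2 (adjusted p = 0.049) and without the low-count filter (0.016). The difference in effect between 4 weeks and Day 3 was -1.996 ± 0.34 (adjusted p = 0.017), 1 of 2 such calls among the 39 genes, beside 2.22% of tested genes with a positive and 0.987% with a negative difference. It was lost without either control library of Day 3, control replicate 1 of 4 weeks or either *Sox17*-*Erg* library of 4 weeks (adjusted p = 0.051 to 0.074). With the block within time point, 1 gene had a positive and 2 a negative difference, beside 4.11% and 2.77% of tested genes. Adipocyte markers, called higher over time in control for 4 of 4 tested, summed to 115.5 and 139.6 CPM at Day 3 and 394.5 and 299 CPM at 4 weeks there, and their part was not tested. *Ldhb* shared 33% of its words with Gm5514, which held at most 101 counts where *Ldhb* held at least 304. *Ldha*, the main subunit, measured 353 and 374 CPM (Day 3), 333 and 262 (Day 7), and 248 and 297 (4 weeks) in control and 347 and 385 CPM (Day 3), 314 and 286 (Day 7), and 242 and 231 (4 weeks) with *Sox17*-*Erg*, and was not called against control. Over time *Ldha* was lower with *Sox17*-*Erg* (-0.63 ± 0.15, adjusted p = 0.013), a call lost without either *Sox17*-*Erg* library of Day 3 or either *Sox17*-*Erg* library of 4 weeks (adjusted p = 0.059 to 0.078), and it was -0.42 ± 0.15 (adjusted p = 0.068) in control, where DESeq2 called it lower (adjusted p = 0.032). Per kilobase, *Ldhb* made up 5.29 and 4.97% (Day 3), 16.5 and 23.4 (Day 7), and 36.4 and 24.6 (4 weeks) of both subunits in control. Its share was 7.87 and 4.56% (Day 3), 9.95 and 12.02 (Day 7), and 13.7 and 13.1 (4 weeks) with *Sox17*-*Erg*.

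The lactate transporters moved in opposite directions. *Slc16a1* encodes MCT1, which carries lactate in or out, and *Slc16a3* encodes MCT4, the exporter of strongly glycolytic cells. *Slc16a1* (chr3:104638668-104658462, plus strand) measured 29.2 and 17.2 CPM (Day 3), 32.3 and 22.4 (Day 7), and 67.05 and 36.8 (4 weeks) in control. *Slc16a1* in *Sox17*-*Erg* libraries measured 21.3 and 14.7 CPM (Day 3), 12.3 and 12.1 (Day 7), and 15.9 and 13.6 (4 weeks). The arms overlapped at Day 3 and not later, and the control libraries at 4 weeks differed widely from each other. It was -0.37 ± 0.34 (adjusted p = 0.5) at Day 3, and lower at Day 7 (-1.16 ± 0.34, adjusted p = 0.047) and 4 weeks (-1.82 ± 0.35, adjusted p = 0.0055). The Day 7 call was lost without either control library of Day 7, *Sox17*-*Erg* replicate 2 of Day 3, either *Sox17*-*Erg* library of Day 7 or either *Sox17*-*Erg* library of 4 weeks (adjusted p = 0.054 to 0.21). It was also lost with library totals. The difference in effect between 4 weeks and Day 3 was -1.44 ± 0.48 (adjusted p = 0.16), and passed with the replicate block within time point (-1.41 ± 0.26, adjusted p = 0.028) and without the low-count filter (adjusted p = 0.0021). *Slc16a3* (chr11:120948480-120960868, plus strand) measured 8.11 and 8.19 CPM (Day 3), 4.19 and 3.94 (Day 7), and 2.25 and 2.52 (4 weeks) in control. *Slc16a3* in *Sox17*-*Erg* libraries measured 9.56 and 9.61 CPM (Day 3), 8.11 and 5.84 (Day 7), and 4.14 and 5.70 (4 weeks). Each *Sox17*-*Erg* library exceeded the control libraries of its time. *Slc16a3* was 0.23 ± 0.21 (adjusted p = 0.5) at Day 3, and higher at Day 7 (0.78 ± 0.22, adjusted p = 0.037) and 4 weeks (1.04 ± 0.22, adjusted p = 0.0095). The Day 7 call was lost without either control library of Day 3, either control library of Day 7, control replicate 2 of 4 weeks, either *Sox17*-*Erg* library of Day 3 or *Sox17*-*Erg* replicate 1 of Day 7 (adjusted p = 0.056 to 0.29), and the 4-week call without control replicate 1 of 4 weeks or *Sox17*-*Erg* replicate 2 of 4 weeks (adjusted p = 0.066 to 0.07). Both were lost in fits of 1 time point, and the Day 7 call with library totals. Over time *Slc16a3* was lower in control (-1.77 ± 0.22, adjusted p = 0.0011) and with *Sox17*-*Erg* (-0.96 ± 0.22, adjusted p = 0.011), the latter call lost without *Sox17*-*Erg* replicate 1 of Day 3 or *Sox17*-*Erg* replicate 1 of 4 weeks (adjusted p = 0.061 to 0.092). Its share of both transporters per kilobase was 22.1 and 32.6% (Day 3), 11.7 and 15.2 (Day 7), and 3.32 and 6.54 (4 weeks) in control. The same share was 31.4 and 40.1% (Day 3), 40.2 and 32.98 (Day 7), and 21.01 and 29.9 (4 weeks) with *Sox17*-*Erg*.

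**Figure D4:**
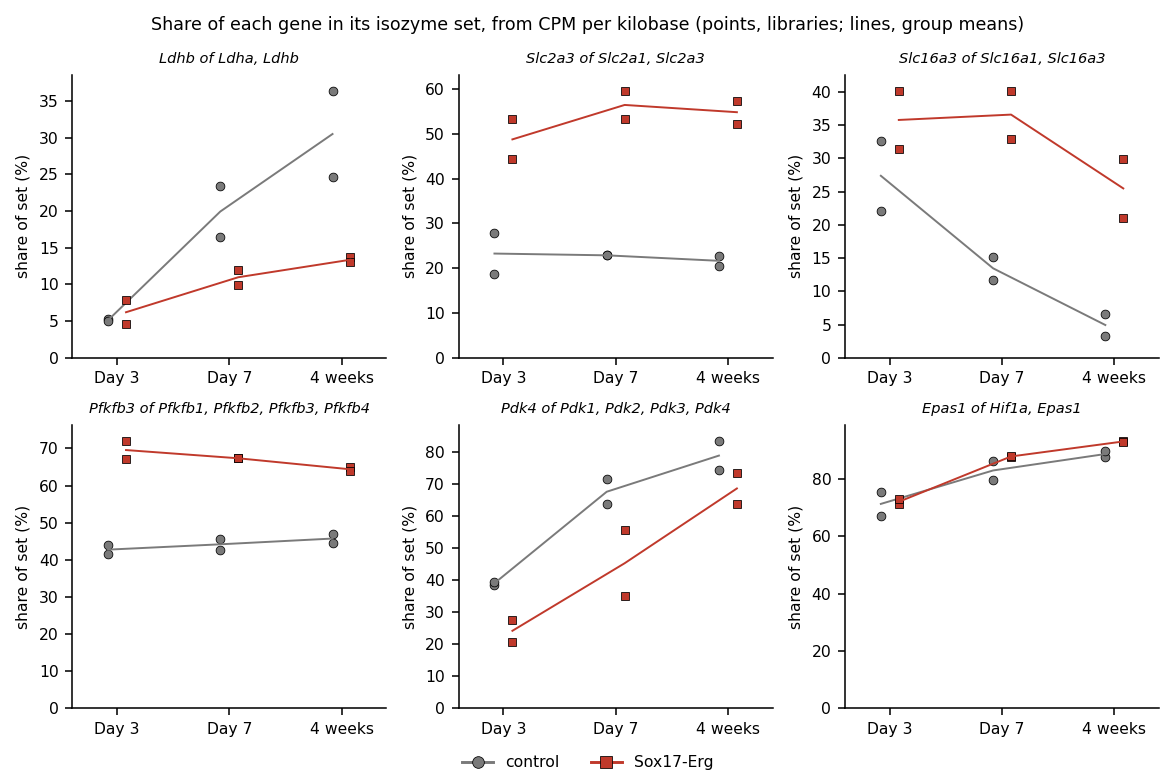
Share of each named gene in its isozyme set, in percent of the summed CPM per kilobase, in each library (points) with group means (lines) at Day 3, Day 7 and 4 weeks. The *Slc2a3* and *Pfkfb3* shares of the arms did not overlap at any time, and the *Ldhb* share of control reached 30.5% on average at 4 weeks against 13.4% with *Sox17*-*Erg*.

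Of the pyruvate dehydrogenase kinases, *Pdk4* varied most. *Pdk4*, the form induced by fasting and fatty acids, measured 43.3 and 47.2 CPM (Day 3), 121 and 218 (Day 7), and 450.5 and 198 (4 weeks) in control. *Pdk4* in *Sox17*-*Erg* libraries measured 14.8 and 24.04 CPM (Day 3), 34.99 and 95.4 (Day 7), and 182 and 105 (4 weeks). At each time *Pdk4* was below control, but replicates also differed and it was not called in the fit of all 12 libraries without a block (-1.22 ± 0.56 at Day 3, adjusted p = 0.18). Without the low-count filter *Pdk4* was called lower at Day 3 (adjusted p = 0.0029), Day 7 (0.00038) and 4 weeks (0.0017), and in the fit of the Day 3 libraries alone (0.031). With the replicate block within time point *Pdk4* was lower at all times, at -1.25 ± 0.20 (adjusted p = 0.0074), -1.49 ± 0.20 (adjusted p = 0.0025) and -1.11 ± 0.19 (adjusted p = 0.0054). *Pdk2*, the form of widest expression, was lower with the block, at -0.66 ± 0.13 (adjusted p = 0.015) at Day 3, -0.81 ± 0.13 (adjusted p = 0.0048) at Day 7 and -0.55 ± 0.13 (adjusted p = 0.017) at 4 weeks, at 8.50 and 34.7 CPM at the extremes. Without a block *Pdk2* was called lower at Day 7 by DESeq2 (-0.83, adjusted p = 0.043) and without the low-count filter (-0.81, adjusted p = 0.0062). *Pdk3* measured 26.7 and 26.4 CPM (Day 3), 19.5 and 20.5 (Day 7), and 20.1 and 20.01 (4 weeks) in control. In the *Sox17*-*Erg* libraries *Pdk3* held 23.6 and 26.9 CPM (Day 3), 25.2 and 27.5 (Day 7), and 17.8 and 18.4 (4 weeks). It was higher at Day 7 (0.40 ± 0.11, adjusted p = 0.032), where the arms stood apart, and not at Day 3 (-0.07 ± 0.11, adjusted p = 0.69) or 4 weeks (-0.15 ± 0.11, adjusted p = 0.35). That call was lost without either control library of Day 3, either control library of Day 7, control replicate 2 of 4 weeks, either *Sox17*-*Erg* library of Day 7 or *Sox17*-*Erg* replicate 1 of 4 weeks (adjusted p = 0.057 to 0.16). It was also lost with library totals, without the low-count filter and in a fit of the Day 7 libraries alone. *Pdk1*, a classical HIF target, ran from 3.58 to 6.43 CPM and was not called against control or over time. *Pdk4* was higher at 4 weeks than at Day 3 in control (2.84 ± 0.57, adjusted p = 0.0078) and with *Sox17*-*Erg* (2.88 ± 0.58, adjusted p = 0.007). The first call was lost without either control library of Day 3 (adjusted p = 0.055 to 0.062), and the second without *Sox17*-*Erg* replicate 1 of Day 3 (adjusted p = 0.057). The share of *Pdk4* in the 4 kinases per kilobase was 38.6 and 39.4% (Day 3), 63.6 and 71.5 (Day 7), and 83.4 and 74.3 (4 weeks) in control. It was 20.8 and 27.6% (Day 3), 35.01 and 55.5 (Day 7), and 73.5 and 63.7 (4 weeks) with *Sox17*-*Erg*.

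Of the HIF alpha subunits, *Epas1* and *Hif1a* were higher with *Sox17*-*Erg* at 4 weeks, and *Hif3a*, from the list of HIF machinery, was lower (-1.92 ± 0.39, adjusted p = 0.0077). *Epas1* (chr17:86753700-86833410, plus strand) encodes HIF-2 alpha, the subunit abundant in endothelium. It measured 269.8 and 449.6 CPM (Day 3), 499 and 857 (Day 7), and 822 and 929 (4 weeks) in control. *Epas1* in *Sox17*-*Erg* libraries measured 348 and 414 CPM (Day 3), 1025 and 1037 (Day 7), and 2333 and 1768 (4 weeks). The arms overlapped at Day 3, and the *Sox17*-*Erg* libraries lay above control at both later times. The log2 fold change was 0.08 ± 0.30 (adjusted p = 0.88) on Day 3, 0.60 ± 0.30 (adjusted p = 0.2) on Day 7 and 1.23 ± 0.30 (adjusted p = 0.018) by 4 weeks. The 4-week call was lost without either control library of 4 weeks or *Sox17*-*Erg* replicate 1 of 4 weeks (adjusted p = 0.06 to 0.11). *Epas1* was higher over time in both arms, by 1.28 ± 0.30 (adjusted p = 0.015) in control and 2.43 ± 0.31 (adjusted p = 0.0012) with *Sox17*-*Erg*, and the difference in effect, 1.14 ± 0.42 (adjusted p = 0.21), passed only without the low-count filter (adjusted p = 0.027). The control call over time was lost without control replicate 1 of Day 3 or control replicate 2 of 4 weeks (adjusted p = 0.056 to 0.11). Per kilobase *Epas1* averaged 65.2 CPM in control at Day 3 and 372 CPM with *Sox17*-*Erg* at 4 weeks, where among the 39 genes it stood next after *Gapdh* (485) and overlapped *Aldoa* (349). *Hif1a*, which encodes HIF-1 alpha, measured 114 and 125 CPM (Day 3), 109 and 118 (Day 7), and 101 and 90.3 (4 weeks) in control. *Hif1a* with *Sox17*-*Erg* held 122 and 132 CPM (Day 3), 124 and 121 (Day 7), and 147 and 116 (4 weeks). It was higher at 4 weeks (0.46 ± 0.13, adjusted p = 0.033) and not at Day 3 (0.08 ± 0.13, adjusted p = 0.71) or Day 7 (0.11 ± 0.13, adjusted p = 0.59). The call was lost without control replicate 1 of Day 3, either control library of 4 weeks or *Sox17*-*Erg* replicate 1 of 4 weeks (adjusted p = 0.052 to 0.23), and without *Sox17*-*Erg* replicate 1 of 4 weeks its log2 fold change was 0.27. It was also lost with an offset for GC content and in a fit of the 4-week libraries alone. Endothelial markers were higher in the same libraries, and their part in the *Epas1* and *Hif1a* levels was not tested.

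The prolyl hydroxylases differed. *Egln3* (chr12:54178981-54203860, minus strand), which encodes PHD3 and is itself a HIF target, measured 5.06 and 4.95 CPM (Day 3), 4.84 and 5.38 (Day 7), and 4.46 and 3.70 (4 weeks) in control. *Egln3* in *Sox17*-*Erg* libraries measured 2.43 and 4.22 CPM (Day 3), 1.10 and 2.64 (Day 7), and 1.59 and 1.19 (4 weeks). All *Sox17*-*Erg* libraries lay below the control libraries of their time. *Egln3* was -0.58 ± 0.40 (adjusted p = 0.36) at Day 3, and lower at Day 7 (-1.47 ± 0.41, adjusted p = 0.036) and 4 weeks (-1.55 ± 0.41, adjusted p = 0.025). The Day 7 call was lost without either control library of Day 3, either control library of Day 7, control replicate 1 of 4 weeks or *Sox17*-*Erg* replicate 1 of Day 7 (adjusted p = 0.051 to 0.21), and its log2 fold change was -0.95 without *Sox17*-*Erg* replicate 1 and -2.25 without *Sox17*-*Erg* replicate 2 of that day. It was also lost in a fit of the Day 7 libraries alone. The 4-week call was lost without either control library of 4 weeks or either *Sox17*-*Erg* library of 4 weeks (adjusted p = 0.053 to 0.12). *Egln1*, which encodes PHD2, the main oxygen sensor, measured 36.4 and 35.1 CPM (Day 3), 40.9 and 35.1 (Day 7), and 53.8 and 52.3 (4 weeks) in control. In the *Sox17*-*Erg* libraries *Egln1* held 46.1 and 43.8 CPM (Day 3), 48.7 and 47.3 (Day 7), and 57.8 and 51.8 (4 weeks). It was not called in the fit of all 12 libraries without a block, and was higher with the block within time point at Day 3 (0.33 ± 0.10, adjusted p = 0.048) and Day 7 (0.34 ± 0.10, adjusted p = 0.037). *Egln1* was higher over time in control (0.57 ± 0.11, adjusted p = 0.0058), a call lost without control replicate 2 of Day 3 (adjusted p = 0.055). With *Sox17*-*Erg* it was 0.29 ± 0.11 (adjusted p = 0.071), called higher by DESeq2 (adjusted p = 0.047) and with a filter of 50 counts (0.042).

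The 5 other hypoxia-response genes went both ways. *Vldlr* (chr19:27216484-27254231, plus strand), the very low density lipoprotein receptor, measured 8.48 and 10.3 CPM (Day 3), 6.61 and 11.6 (Day 7), and 6.74 and 6.87 (4 weeks) in control. *Vldlr* in *Sox17*-*Erg* libraries measured 26.8 and 20.1 CPM (Day 3), 35.9 and 27.7 (Day 7), and 70.8 and 64.7 (4 weeks). The arms did not overlap at any time. The log2 fold change was 1.32 ± 0.26 (adjusted p = 0.015) on Day 3, 1.81 ± 0.26 (adjusted p = 0.0021) on Day 7 and 3.31 ± 0.27 (adjusted p = 7.2e-05) by 4 weeks, or 2.50-fold, 3.50-fold and 9.95-fold. The Day 3 call was lost without either control library of Day 3 or *Sox17*-*Erg* replicate 1 of Day 3 (adjusted p = 0.072 to 0.14). The effect at 4 weeks exceeded that at Day 3 by 1.99 ± 0.36 (adjusted p = 0.022), which was lost without either control library of Day 3, either control library of 4 weeks, *Sox17*-*Erg* replicate 2 of Day 3 or either *Sox17*-*Erg* library of 4 weeks (adjusted p = 0.056 to 0.079). *Vldlr* was higher over time with *Sox17*-*Erg* (1.53 ± 0.25, adjusted p = 0.0031) and -0.46 ± 0.26 (adjusted p = 0.22) in control. The promoter windows of *Vldlr* held no HIF core.

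*Ndrg1*, a gene induced by hypoxia and by cell differentiation, measured 18.5 and 11.1 CPM (Day 3), 23.9 and 23.1 (Day 7), and 71.6 and 31.4 (4 weeks) in control. *Ndrg1* in *Sox17*-*Erg* libraries measured 4.45 and 3.96 CPM (Day 3), 6.12 and 9.23 (Day 7), and 25.4 and 14.8 (4 weeks). It was below control at each time, and both arms were higher at 4 weeks. *Ndrg1* was lower, at -1.82 ± 0.44 (adjusted p = 0.031) on Day 3, -1.62 ± 0.42 (adjusted p = 0.03) on Day 7 and -1.36 ± 0.41 (adjusted p = 0.041) by 4 weeks. The Day 3 call was lost without either control library of Day 3 or either *Sox17*-*Erg* library of Day 3 (adjusted p = 0.062 to 0.17), and the Day 7 call without either control library of Day 7 or *Sox17*-*Erg* replicate 1 of Day 7 (adjusted p = 0.075 to 0.21). At 4 weeks it was lost without control replicate 2 of Day 3, either control library of Day 7, control replicate 1 of 4 weeks, either *Sox17*-*Erg* library of Day 3 or either *Sox17*-*Erg* library of 4 weeks (adjusted p = 0.051 to 0.33), and without control replicate 1 of 4 weeks its log2 fold change was -0.64 in place of -1.36. It was also lost with an offset for GC content and in a fit of the 4-week libraries alone. *Bnip3*, which acts in mitophagy, measured 17.3 and 21.4 CPM (Day 3), 27.8 and 27.7 (Day 7), and 40.3 and 26.5 (4 weeks) in control. *Bnip3* in *Sox17*-*Erg* libraries measured 9.62 and 10.04 CPM (Day 3), 14.9 and 21.5 (Day 7), and 22.02 and 22.9 (4 weeks). It too lay below control at each time, and was called lower at Day 3 (-0.98 ± 0.23, adjusted p = 0.028), not at Day 7 (-0.61 ± 0.22, adjusted p = 0.091) or 4 weeks (-0.58 ± 0.22, adjusted p = 0.093). Without the low-count filter *Bnip3* was called lower at those times too (adjusted p = 0.032 and 0.033). The Day 3 call was lost without either control library of Day 3 or either *Sox17*-*Erg* library of Day 3 (adjusted p = 0.075 to 0.17). *Bnip3* and *Ndrg1* were higher over time in control (0.79 ± 0.22, adjusted p = 0.029, and 1.80 ± 0.42, adjusted p = 0.014, in this order) and with *Sox17*-*Erg* (1.19 ± 0.23, adjusted p = 0.0059, and 2.26 ± 0.44, adjusted p = 0.0064, in this order). The control calls were lost for *Bnip3* without either control library of Day 3 or control replicate 1 of 4 weeks (adjusted p = 0.07 to 0.22), and for *Ndrg1* without control replicate 2 of Day 3 or control replicate 1 of 4 weeks (adjusted p = 0.099 to 0.1). Without control replicate 1 of 4 weeks the change over time in control was 0.46 for *Bnip3* and 1.08 for *Ndrg1*. *Bnip3* shared 20.3% of its words with annotated copies, and the largest of these, Gm16439, held 0 counts.

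*Ankrd37* and *Car9* were near the limit of the counts. *Ankrd37*, a direct HIF-1 target of unclear function, had 1 and 1 counts in the control libraries at 4 weeks and 15 and 14 counts with *Sox17*-*Erg*. The ratio of summed counts, scaled for library size, was 16.9, with an exact 95% interval of 4.28 to 146 that covers counting error only. The fitted call (3.88 ± 1.10, adjusted p = 0.033) rests on counts this low. It was lost without either control library of Day 7, either control library of 4 weeks or either *Sox17*-*Erg* library of 4 weeks (adjusted p = 0.052 to 0.21). DESeq2 did not make the call. At Day 7 *Ankrd37* had 2 and 3 counts in control and 5 and 8 with *Sox17*-*Erg* (ratio 2.24, interval 0.75 to 8.04), and at Day 3 between 0 and 2 counts in each of the 4 libraries. *Car9*, carbonic anhydrase IX, the cell-surface enzyme used as a marker of tissue hypoxia, held between 6 and 26 counts per library. At 4 weeks it had 6 and 8 counts in control and 18 and 19 with *Sox17*-*Erg* (ratio 3.09, interval 1.63 to 6.18), and was not called (1.53 ± 0.52, adjusted p = 0.065).

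Over time, 9 of the 39 genes were higher in control at 4 weeks than at Day 3 (23.1%) and 8 were lower (20.5%), beside 13.9% and 12.6% of all tested genes. With *Sox17*-*Erg*, 8 were higher (20.5%) and 11 lower (28.2%), beside 15.1% and 15.6%. The median log2 fold change of the 39 genes was -0.27 in control and -0.11 with *Sox17*-*Erg*, beside -0.01 and -0.01 for all tested genes. Genes not yet given for time were *Gpi1* and *Slc16a1*, higher in control by 0.43 ± 0.11 (adjusted p = 0.024) and 1.16 ± 0.34 (adjusted p = 0.033), and *Pfkp*, the platelet phosphofructokinase, lower, at -0.71 ± 0.12 (adjusted p = 0.0042). *Pfkp* held its call in all 12 fits, while *Gpi1* lost it without either control library of Day 3 or either control library of 4 weeks (adjusted p = 0.055 to 0.16), and *Slc16a1* without control replicate 2 of Day 3 or control replicate 1 of 4 weeks (adjusted p = 0.2 to 0.25). Without control replicate 1 of 4 weeks the change in control was 0.66 for *Slc16a1* and 0.48 for *Pdk2*. *Pfkfb3* was lower over time with *Sox17*-*Erg* (-0.55 ± 0.13, adjusted p = 0.014), a call lost without *Sox17*-*Erg* replicate 1 of Day 3 or *Sox17*-*Erg* replicate 1 of 4 weeks (adjusted p = 0.13 to 0.14) and with library totals. *Pfkfb1* was lower (-1.34 ± 0.37, adjusted p = 0.025) and *Eno2* higher (1.04 ± 0.30, adjusted p = 0.03) with *Sox17*-*Erg*, and these calls were lost without either *Sox17*-*Erg* library of Day 3 or *Sox17*-*Erg* replicate 1 of 4 weeks (adjusted p = 0.092 to 0.17) for *Pfkfb1* and without *Sox17*-*Erg* replicate 1 of Day 3 or *Sox17*-*Erg* replicate 1 of 4 weeks (adjusted p = 0.15) for *Eno2*. *Pdk2* was higher by 0.89 ± 0.29 (adjusted p = 0.048) in control and 0.96 ± 0.29 (adjusted p = 0.035) with *Sox17*-*Erg*, and *Pdk3* lower, at -0.40 ± 0.11 (adjusted p = 0.022) and -0.48 ± 0.11 (adjusted p = 0.01). *Car9* was lower in control (-1.66 ± 0.53, adjusted p = 0.045), and with *Sox17*-*Erg* *Egln3* was lower (-1.26 ± 0.42, adjusted p = 0.046) and *Ankrd37* higher (3.35 ± 1.12, adjusted p = 0.049). The *Pdk2* calls were lost in 7 of 12 leave-outs in control and in 5 with *Sox17*-*Erg*, those of *Car9* in 11, and those of *Egln3* and *Ankrd37* in 10 each. The *Pdk3* calls were lost without either control library of Day 3 or either control library of 4 weeks (adjusted p = 0.084 to 0.11), and without *Sox17*-*Erg* replicate 2 of Day 3 or *Sox17*-*Erg* replicate 1 of 4 weeks (adjusted p = 0.072 to 0.08). With the replicate number as 1 block, *Pdk2* (adjusted p = 0.053) and *Car9* (0.055) were no longer called in control, nor *Egln3* (0.053) and *Ankrd37* (0.057) with *Sox17*-*Erg*. *Car9* was also lost with DESeq2 (0.072), library totals (0.056) and no low-count filter (0.098), and *Ankrd37* with the same 3 choices (0.089, 0.052 and 0.066). *Egln3* was lost with DESeq2 size factors (0.051), library totals (0.05), a filter of 50 counts (0.051) and the GC-content offset (0.055). Without the low-count filter the calls of *Gpi1* (0.074) and *Pdk3* (0.14) in control and of *Pdk3* (0.053) with *Sox17*-*Erg* were lost. The change with *Sox17*-*Erg* was -0.80 for *Egln3* without replicate 2 of Day 3. Without replicate 1 of Day 3 the change of *Ankrd37* could not be measured, since the remaining library of that group held 0 counts. The calls of *Pfkp*, *Slc16a3*, *Ldhb* and *Pkm* in control and of *Ndrg1*, *Pgam1*, *Epas1*, *Vldlr*, *Pkm* and *Bnip3* with *Sox17*-*Erg* held in all 12 fits.

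Of 41 other HIF target genes, 39 were tested, and more were called lower than higher. At Day 3, 1 was higher (2.56%) and 7 were lower (17.9%), beside 7.19% and 5.13% of all tested genes. At Day 7, 3 were higher (7.69%) and 9 lower (23.1%), beside 9.48% and 7.93%, and at 4 weeks 4 (10.3%) and 12 (30.8%), beside 11.9% and 11%. By edgeR, higher calls were thus below the background share each time, though only slightly at Day 7 and 4 weeks. Lower calls were above it each time. DESeq2 called 1, 5 and 6 of the 39 higher in order of time, beside 1410, 1677 and 2087 of 15506 tested genes. Its higher calls were thus above the background share at Day 7 and 4 weeks. It called 9, 10 and 12 lower, beside 1290, 1595 and 1927, which was above that share each time. None of these differences was tested. The list's median log2 fold change stayed near 0, at -0.02, -0.06 and 0.01. *Vegfa*, the endothelial growth factor, was 0.28 ± 0.21 (adjusted p = 0.41) at Day 3, and higher at Day 7 (0.69 ± 0.21, adjusted p = 0.048) and 4 weeks (1.62 ± 0.21, adjusted p = 0.00081). *Ptgis*, prostacyclin synthase, was lower at all 3 times, at -0.92 ± 0.11 (adjusted p = 0.00065) at 4 weeks. *Mt2*, a metallothionein, was lower, at -3.03 ± 0.41 (adjusted p = 0.0011) at 4 weeks, and *Gbe1*, the glycogen branching enzyme, at -1.44 ± 0.18 (adjusted p = 0.001) at Day 7. Of 15 genes of the HIF machinery, none was higher and 1 was lower (6.67%) at Day 3, by edgeR. The counts were 1 and 1 (6.67% each) for Day 7 and 1 (6.67%) and 2 (13.3%) for 4 weeks, near the background shares. At Day 3, 1 was higher at an unadjusted p under 0.05, and DESeq2 called none higher. *Hif3a*, whose product can hold back the other HIF factors, was the gene lower at all 3 times, at -2.19 ± 0.40 (adjusted p = 0.012), -1.68 ± 0.39 (adjusted p = 0.018) and -1.92 ± 0.39 (adjusted p = 0.0077). *Siah2*, a ubiquitin ligase acting on prolyl hydroxylases, was higher at Day 7 (0.85 ± 0.17, adjusted p = 0.011). At 4 weeks *Arnt2*, a HIF partner, was higher (0.90 ± 0.25, adjusted p = 0.028) and *Rbx1*, of the ubiquitin ligase of VHL, lower (-0.49 ± 0.13, adjusted p = 0.028).

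Among 26 other isozymes and sugar carriers, 17 were tested, and 1 was higher (5.88%) and 2 were lower (11.8%) at Day 3, as at Day 7. By 4 weeks 2 were higher (11.8%) and 1 lower (5.88%), and at each time these counts are within 2 genes of the background share. *Bpgm*, which draws 1,3-bisphosphoglycerate off glycolysis into 2,3-bisphosphoglycerate, was higher at each time, by 1.52 ± 0.17 (adjusted p = 0.0014), 1.96 ± 0.17 (adjusted p = 0.00019) and 2.61 ± 0.17 (adjusted p = 2.3e-05). *Slc2a4*, which encodes the insulin-regulated carrier GLUT4, was lower at Day 3 (-2.30 ± 0.45, adjusted p = 0.014), as was the muscle mutase *Pgam2* (-1.64 ± 0.39, adjusted p = 0.029). *Ldhd*, the D-lactate dehydrogenase, was lower at Day 7 (-1.48 ± 0.28, adjusted p = 0.0078). Of 8 genes of the pentose phosphate pathway, 0 were called higher by edgeR or DESeq2, with 1 higher at an unadjusted p under 0.05 at Day 3 and at Day 7. In that pathway 1 (12.5%), 2 (25%) and 2 (25%) genes were lower at the 3 times, beside 5.13%, 7.93% and 11% of all tested genes. *H6pd*, of the endoplasmic reticulum, was lower, at -0.97 ± 0.22 (adjusted p = 0.025), -1.43 ± 0.22 (adjusted p = 0.0032) and -1.35 ± 0.22 (adjusted p = 0.0027), and *G6pdx*, the entry enzyme, at -0.76 ± 0.14 (adjusted p = 0.0073) and -0.80 ± 0.14 (adjusted p = 0.004) at Day 7 and 4 weeks. Of 10 genes of pyruvate entry into mitochondria, 0 were called at Day 3 or Day 7 by edgeR. At an unadjusted p under 0.05, 1 was higher and 1 lower at Day 3 and 1 lower at Day 7, and DESeq2 called 1 lower at Day 3. At 4 weeks *Mpc2*, of the pyruvate carrier, and *Pdp2*, a phosphatase of the complex, were lower, at -0.66 ± 0.16 (adjusted p = 0.017) and -0.44 ± 0.13 (adjusted p = 0.04), which is 20% of the list beside 11% of all tested genes. DESeq2 called 1 of the 10 lower at 4 weeks, beside 1927 of 15506 tested genes.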

How the data were processed

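RNA was extracted with TRIzol, made into stranded mRNA libraries (Kapa) and sequenced as paired 50-base reads, 12 libraries in 6 groups of 2. Per the study's methods, reads were demultiplexed with bcl2fastq 2.20.0, trimmed with BBDuk and quantified with Salmon, whose version is not given in the sources used here, and the submitters' processing notes name build mm10. The authors deposited estimated counts per Ensembl gene for all 12 libraries, and these expected counts were already rounded to whole numbers and not scaled. Gene symbols, positions and lengths came from a GRCm38 annotation, and promoters from RefSeq.

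Genes passing filterByExpr (minimum count 10, minimum total 15) were fitted with edgeR 4.0.16 in R 4.3.3, with TMM factors, a mean for each group, which left 6 residual degrees of freedom. P-values were adjusted by Benjamini-Hochberg over all 15506 tested genes, two-sided, and called under 0.05. Groups came from the labels. All 39 genes are accounted for. Genes called against control or in the difference in effect are described by library, and of the other lists up to 4 genes with the smallest adjusted p. The members and lists were chosen with earlier results of these data known. CPM per kilobase used the annotated transcript length. Intervals on summed counts are exact and cover counting error only. The fit was tested on simulated data with 200 changed genes.

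Alternatives were DESeq2 1.42.0, other scalings and filters, a GC-content offset, fits of 1 time point, stricter thresholds, replicate blocks and leaving out each library. Same-numbered control and *Sox17*-*Erg* libraries deviated from their group means together, with a correlation across genes of 0.19 (Day 3), 0.3 (Day 7) and 0.17 (4 weeks), so the replicate numbers were taken as pairs within a time point (3 residual degrees of freedom). Between Day 3 and Day 7 the same-numbered libraries correlated at 0.14 to 0.22, and between 4 weeks and the earlier times at -0.14 to -0.01. Since the labels name no pairs, the block is an assumption.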

Additional observations from a re-analysis of the deposited data

Results flagged for a closer look

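The effect of *Sox17*-*Erg* on *Vldlr* and *Ldhb* differed between 4 weeks and Day 3 by a test of the difference itself, in opposite directions. The log2 fold change of *Vldlr* was larger at 4 weeks by 1.99 ± 0.36 (adjusted p = 0.022), and that of *Ldhb* was lower by -1.996 ± 0.34 (adjusted p = 0.017). Neither call held in every fit that left out 1 library: *Vldlr* lost it in 7 of 12 and *Ldhb* in 5 of 12. Of the genes not called by this test, the difference was called for *Gpi1* by DESeq2 (-0.51, adjusted p = 0.012) and for *Eno2* without the low-count filter (1.24, adjusted p = 0.034), which also called it for *Epas1* (1.14, adjusted p = 0.027) and *Slc16a1* (-1.46, adjusted p = 0.0021). The replicate block also called it for *Slc16a1*. With 2 libraries per group, no library could be tested for standing apart from its own group.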

How the results depend on the processing

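With 2 libraries per group the counts of called genes depended on the fit. The block within time point raised the count from 5 to 13 at Day 3 and from 11 to 17 at Day 7, beside 23.2% and 27.1% of all tested genes called, and ended no call against control. Other calls against control did not change under it beyond those given with their genes. The replicate number as 1 block over all libraries gave 5, 12 and 14 calls at the 3 time points. These were 12.8%, 30.8% and 35.9% of the 39 genes, beside 14.6%, 19.6% and 24.6% of all tested genes. That fit gave 3 differences in effect (7.69% beside 4%), and 15 and 17 calls over time in control and *Sox17*-*Erg* (beside 27.8% and 31.8% of all tested genes). An adjusted p under 0.01 left 2 calls at Day 3 (5.13% of the 39, beside 2.72% of all tested genes), 3 at Day 7 (7.69% beside 7.1%), 7 at 4 weeks (17.9% beside 11.8%), 6 over time in control (15.4% beside 11.1%), 9 over time with *Sox17*-*Erg* (23.1% beside 13.7%), and 0 differences in effect (beside 0.793%). For the difference in effect, DESeq2 called 3 of the 39 at an adjusted p under 0.05 (7.69% beside 6.8%). In edgeR 12 of the 39 had an unadjusted p under 0.05 for it, and the share of all tested genes at that level was not counted. A log2 fold change of at least 1 left 7 calls at Day 7 (beside 10.2% of all tested genes), 8 over time in control (13.2%) and 11 with *Sox17*-*Erg* (14.8%). Without the low-count filter there were 9 calls at Day 3 (beside 11.1%) and 5 differences in effect (4.59%), and fits of 1 time point gave 9, 7 and 9 calls at Day 3, Day 7 and 4 weeks (beside 15.7%, 7.46% and 20.7%). Leaving out 1 library gave 1 to 6 calls at Day 3, 3 to 12 at Day 7, 6 to 13 at 4 weeks, 0 to 2 differences in effect (beside up to 2.97% of all tested genes), 5 to 16 calls over time in control (11 to 26%) and 7 to 18 with *Sox17*-*Erg* (13.2 to 29.8%). Over time in control the count was 5 without replicate 2 of Day 3 (beside 11.7%) and 7 without replicate 1 of Day 3 (11.1%) or of 4 weeks (11%), and with *Sox17*-*Erg* it was 9 without replicate 1 of Day 3 (13.2%) and 7 without replicate 1 of 4 weeks (13.6%), so that calls over all tested genes were fewer too. No difference in effect was called without either control library of Day 3, control replicate 1 of 4 weeks or either *Sox17*-*Erg* library of 4 weeks. No called gene changed direction under any alternative. DESeq2 ended 3 single-gene calls and added 9, library totals ended 8 and added 2, leaving out the low-count filter ended 6 and added 19, and a GC-content offset ended 3 and added 0. The cause of these changes was not tested.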
